A study of Rattus norvegicus with 56 samples.

Results

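The major histocompatibility complex (MHC) and antigen presentation genes of the rat liver were followed through 16 groups of animals. Members were the genes of the count table whose symbol starts with RT1-, the name of the rat MHC, together with B2m, Cd74, Ciita, Tap1, Tap2, Tapbp, Psmb8, Psmb9, Psmb10 and Nlrc5. The rule used no measured value. It found 58 of the 17337 genes in the table: 49 RT1- genes, of which 39 are class I and 10 class II, and 9 of the 10 genes given by symbol. Nlrc5 was not analysed here. Enough reads for a test were present for 35 of the 58, namely 22 class I genes, 5 class II genes and 8 of the others, among 11047 genes tested in all.

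The study sequenced liver RNA of adult Sprague-Dawley rat offspring at day 180 and compared diets before and after birth in both sexes and at 2 times of day. Control offspring (CON) came from dams kept on regular chow. For the HFhf group, dams changed at gestation day 11 to a Western diet and to drinking water that held 25% fructose. Intrauterine growth restriction (IUGR) was produced by a cut of 50% in the dams' calories that began on gestation day 10 and ended at birth. Regular chow then followed in the IUGR-RC group, and the HFhf diet in the IUGR-HFhf group. Sampling was in the light, at ZT4 (zeitgeber time 4), or in the dark, at ZT16, of a 12 h light cycle. The stock is outbred, the labels name no mutation, transgene or drug, and the diets lasted until the livers were taken at 6 months. Each combination of sex, time and diet held 3 or 4 libraries, with 12 libraries for CON, 14 for HFhf, 15 for IUGR-HFhf and 15 for IUGR-RC. The labels do not say whether animals of a group shared a litter, so the p-values measure only the spread between these samples.

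MHC class I molecules show peptides from inside the cell to cytotoxic T cells. The peptides are cut by the proteasome, which can carry the inducible catalytic subunits encoded by Psmb8, Psmb9 and Psmb10 (the immunoproteasome), pass into the endoplasmic reticulum through the Tap1 and Tap2 transporter, and are loaded with the help of tapasin (Tapbp) onto an RT1 class I heavy chain paired with beta-2 microglobulin (B2m). MHC class II molecules, pairs of RT1-B or RT1-D alpha and beta chains held by the invariant chain Cd74 until peptide is loaded, show peptides from outside the cell to helper T cells. Ciita is the master regulator of class II transcription, and interferon-gamma raises most genes of both pathways. In the liver, class I is made by nearly every cell, while class II is mainly a product of Kupffer cells, dendritic cells and B cells.

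The libraries held 5.55 to 19.1 M counted reads (M, mega; median 9.17 M). The median was 13.4 M in IUGR-RC and 8.24 M in the other libraries. In CON, males had 5.55 to 9.05 M and females 8.03 to 18.7 M. The part of depth in the sex differences was not tested. The IUGR-RC libraries also carry another series of title numbers, so a library batch and this group cannot be told apart. In the other diets the title numbers of all males lie below those of all females, so title order and sex cannot be told apart there. Rmrp, a noncoding RNA, had 2.29 to 10.6 CPM in all 15 IUGR-RC libraries and 743.2 to 4072 CPM in the other 41, with no overlap. The 10 hepatocyte markers summed to 179300 to 261000 CPM in CON, where CPM is a count scaled to library size. A set of 4 libraries stood apart, 3 by muscle transcripts and 1 by clock genes. Summed transcripts of 6 skeletal muscle genes reached 2817 CPM in replicate 2 of IUGR-RC females at ZT4, 359 CPM in replicate 3 of HFhf males at ZT16 and 36.6 CPM in replicate 2 of IUGR-HFhf females at ZT4, against 0.264 to 5.55 CPM in the other 52 libraries. The library labelled replicate 3 of IUGR-RC females at ZT4 had 2.22 CPM of the clock gene Arntl and 135 CPM of the clock output gene Dbp. CON libraries had 48.6 to 60.6 CPM of Arntl and 3.54 to 6.47 CPM of Dbp at ZT4, and 2.36 to 9.95 CPM of Arntl and 58.4 to 139 CPM of Dbp at ZT16. Clock genes also lay outside the CON ranges of their time in other diets. At ZT4 replicates 1 and 3 of HFhf males had 13.6 and 13.3 CPM of Arntl and 115 and 106 CPM of Dbp. Replicate 1 of IUGR-HFhf females at ZT4 had 12 and 102 CPM, and replicate 2 of HFhf females at ZT4 50.5 and 13.8 CPM. At ZT16 HFhf males had 11 to 18 CPM of Dbp. The part of these shifts in the time differences was not tested. Where a comparison was fitted again without the 4 libraries that stood apart, lost calls of members are given with and without them. Comparisons within IUGR-RC, within the 3 other diets together or within a single sex were not fitted again without the 4. In whole liver, fewer cells of a type and less RNA per cell cannot be told apart.

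The stretch before the transcription start is shown for 8 members, class II chains that varied together between libraries and class I genes whose levels differed between times, sexes or diets. RefSeq promoters of the GRCr8 build matched 49 of the 58 members, 46 of them on chromosome 20, where the rat MHC lies. The counts rest on the older rn6 build, so these sequences serve only as a description of the loci. Each line gives the gene, then the sequence 5′ to 3′ on the gene's strand, ending at the base before the annotated start, with matches to a motif in capitals. For RT1-Da, the class II D alpha chain, at chr20:4515265-4515414 (+ strand), for RT1-Db1, a D beta chain, at chr20:4560163-4560312 (- strand), and for RT1-Ba, the B alpha chain, at chr20:4576907-4577056 (+ strand), the capitals mark the Y box of class II promoters (CTGATTGG), at positions -52, -83 and -46 from the start. For B2m at chr3:129549160-129549329 (+ strand), Tap1 at chr20:4668544-4668693 (- strand), Tapbp at chr20:4967878-4968027 (- strand) and Psmb10 at chr19:50743293-50743442 (- strand) they mark the core of the interferon-stimulated response element (GAAA, any 2 bases, then GAAA, on either strand). For RT1-A1, a classical class I heavy chain, at chr20:4907059-4907208 (+ strand), they mark an NF-kB site (GGGATTCCC).
RT1-Da: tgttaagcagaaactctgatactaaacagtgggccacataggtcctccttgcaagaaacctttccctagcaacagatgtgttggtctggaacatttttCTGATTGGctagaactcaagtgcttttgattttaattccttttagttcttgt
RT1-Db1: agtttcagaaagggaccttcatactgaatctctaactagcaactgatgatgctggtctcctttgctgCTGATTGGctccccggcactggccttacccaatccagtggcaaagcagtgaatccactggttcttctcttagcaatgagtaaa
RT1-Ba: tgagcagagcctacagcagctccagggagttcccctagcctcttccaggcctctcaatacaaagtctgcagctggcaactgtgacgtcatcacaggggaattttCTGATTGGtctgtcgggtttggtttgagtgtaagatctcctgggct
B2m: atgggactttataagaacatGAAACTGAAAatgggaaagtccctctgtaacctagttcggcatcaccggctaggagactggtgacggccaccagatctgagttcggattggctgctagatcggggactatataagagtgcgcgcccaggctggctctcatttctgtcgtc
Tap1: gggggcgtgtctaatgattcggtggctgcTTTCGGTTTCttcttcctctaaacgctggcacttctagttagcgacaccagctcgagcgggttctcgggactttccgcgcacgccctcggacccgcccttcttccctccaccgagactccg
Tapbp: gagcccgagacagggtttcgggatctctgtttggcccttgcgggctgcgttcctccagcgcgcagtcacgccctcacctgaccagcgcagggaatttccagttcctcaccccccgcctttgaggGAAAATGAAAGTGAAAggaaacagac
Psmb10: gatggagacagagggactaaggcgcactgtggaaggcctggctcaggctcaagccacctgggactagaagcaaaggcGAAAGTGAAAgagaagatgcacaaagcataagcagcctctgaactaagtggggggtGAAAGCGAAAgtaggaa
RT1-A1: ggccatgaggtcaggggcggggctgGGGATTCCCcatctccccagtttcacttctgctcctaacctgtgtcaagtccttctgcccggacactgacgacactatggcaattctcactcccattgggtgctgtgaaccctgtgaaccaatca
Searched on both strands over 250 bases before the start, the Y box was present in 7 of 9 class II RT1 promoters and 10 of 32 class I promoters, against 3.19% of 33469 promoters. On the gene's strand all 7 class II matches read CTGATTGG, while all 10 class I matches read its reverse complement, CCAATCAG. The class I matches thus lay in the opposite orientation. The last 5 letters of the Y box, ATTGG, are the reverse complement of the CCAAT box, which 34% of all promoters and 32 of the 49 members held. The response element core was present in 5 of the 7 promoters of B2m, the transporter, tapasin and the immunoproteasome, in 3 of 32 class I promoters and in none of the 9 of class II, against 3.41% of all promoters. The NF-kB site was found in 8 of 32 class I promoters and in 0.272% of all. The E box CACGTG, a binding motif of the clock activators, was in none of the 49 windows and in 5.59% of all promoters. The gamma-activated site TTCNNNGAA was in 3 members and 7.67% of all, and the GC box GGGCGG in 15 members and 30.5% of all. The start of Tap1, on the minus strand, lies 457 bases from that of Psmb9, on the plus strand, so these genes are read outward from a shared stretch. A match describes letters in a window and is not a measured site.

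B2m was among the abundant transcripts, with 910 CPM in the lowest, 1379 CPM in the median and 4108 CPM in the highest of the 56 libraries. Among class I heavy chains RT1-S3 ranged from 111 to 327 CPM and RT1-A2 from 57.7 to 272 CPM. RT1-CE10, RT1-A1, RT1-CE5 and RT1-CE16 had medians of 26.9, 28.8, 25.2 and 20.1 CPM. CPM values carry no correction for gene length, so the order between genes is not a measured order of transcripts. Summed over the 39 class I genes the group means ran from 395 CPM in IUGR-HFhf females at ZT16 to 734 CPM in IUGR-RC females at ZT16. Of the class II genes, RT1-Da (median 48.1 CPM), RT1-Ba (30.3 CPM) and RT1-Db1 (19.9 CPM) were read in every library, as was Cd74 (62.9 to 244 CPM). Ciita had a median of 4.05 CPM. The summed level of the 10 class II genes ran from 79.6 CPM in IUGR-HFhf females at ZT16 to 176 CPM in IUGR-RC males at ZT16.

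A further 23 members were too low for a test. No read was counted in any library for RT1-Cl, RT1-M1-4, RT1-N1, RT1-CE12, RT1-CE13, RT1-DMa and Tap2. A count of 0 allows up to 3 reads, which is 0.155 to 0.557 CPM by library, for counting error only. Tap2 forms the transporter with Tap1, and RT1-DMa is a chain of the class II peptide exchange factor, so a count of 0 bears on the symbol in this table and not on the protein. The regulators of that exchange, RT1-DOa and RT1-DOb, had medians of 0.399 and 0.354 CPM. RT1-DMb and RT1-Ha had 1 read each in all. The other 12 untested class I genes were RT1-M5, RT1-M4, RT1-M6-1, RT1-M1-5, RT1-M1-2, RT1-M10-1, RT1-T18, RT1-S2, RT1-T24-4, RT1-CE1, RT1-CE11 and RT1-CE7, with at most 0.945 CPM in a library. The class I genes are near-identical copies that differ between RT1 haplotypes, and the rats were outbred. How reads of such copies were shared out was not tested, so values for single class I heavy chains are uncertain.

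**Figure D1:**
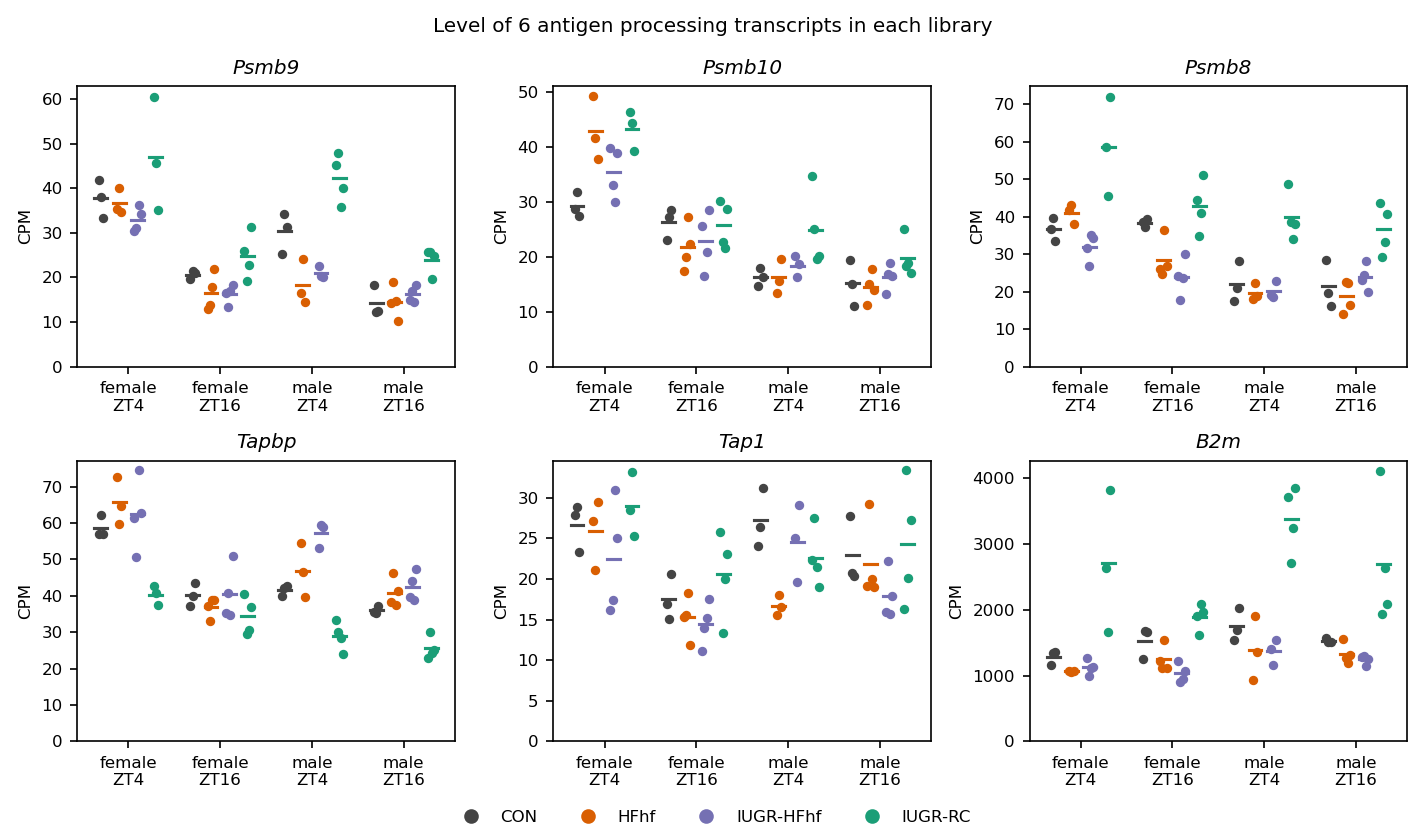
CPM of Psmb9, Psmb10, Psmb8, Tapbp, Tap1 and B2m in each library (points) with the group mean (bar), by sex and time on the horizontal axis and diet in colour. Psmb9 lay lower at ZT16 in every pair of groups, and B2m lay highest in IUGR-RC.

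Across the 16 groups the members had different orders. The group mean of Psmb9 ran from 14.4 CPM in CON males at ZT16 to 47.1 CPM in IUGR-RC females at ZT4, a ratio of 3.28. Psmb8 and Psmb10 were also highest in IUGR-RC females at ZT4, with 58.7 and 43.4 CPM, and lowest in HFhf males at ZT16, with 18.8 and 14.5 CPM. Tapbp ran from 25.7 CPM in IUGR-RC males at ZT16 to 65.7 CPM in HFhf females at ZT4. B2m ran from 1039 CPM in IUGR-HFhf females at ZT16 to 3384 CPM in IUGR-RC males at ZT4. The group of IUGR-HFhf females at ZT16 was also lowest for Cd74 (92.5 CPM), RT1-Da (38.4 CPM), RT1-Ba (24.5 CPM), RT1-A1 (20.5 CPM), RT1-A2 (95.7 CPM), RT1-S3 (155.7 CPM) and Tap1 (14.4 CPM). Ciita ran from 2.98 CPM in IUGR-RC females at ZT4 to 7.99 CPM in IUGR-HFhf males at ZT4, and Cd74 was highest in HFhf males at ZT16 (176.7 CPM). These orders are descriptions with no test of neighbours.

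At ZT16, in the dark, 5 genes of class I peptide processing were lower than at ZT4, and 1 class I heavy chain was higher. The immunoproteasome subunit gene Psmb9 (low molecular mass protein 2) had 41.95, 38.1 and 33.4 CPM in the 3 CON females at ZT4 and 19.6, 21.3 and 21.0 CPM at ZT16. In CON males it had 25.2, 34.3 and 31.4 CPM at ZT4 and 18.4, 12.2 and 12.4 CPM at ZT16. The groups did not overlap in either sex. Over all 56 libraries it ran from 14.6 CPM over a median of 34.5 to 60.4 CPM at ZT4, and from 10.2 over 18.3 to 31.4 CPM at ZT16. The mean over the 8 combinations of sex and diet was lower at ZT16 by a log2 fold change of -0.82 ± 0.06 (standard error; edgeR, adjusted p = 2.79e-14). It was lower in 8 of 8 combinations, and the libraries of the times did not overlap in 7.

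Tapbp, the peptide loading chaperone, fell with a log2 fold change of -0.41 ± 0.04 at ZT16 (adjusted p = 4.25e-10), from a median of 51.9 to 37.4 CPM, and was lower in 8 of 8 combinations. Psmb10 fell by 0.41 on the log2 scale (adjusted p = 2.54e-06), from a median of 28.1 to 19.2 CPM. Tap1 fell by 0.34 (adjusted p = 0.000301), with medians of 25.0 and 18.7 CPM, and was higher at ZT16 in 2 of 8 combinations. Psmb8 fell by 0.17 (adjusted p = 0.0381) and lost this call without the IUGR-RC libraries (adjusted p = 0.145). The nonclassical class I gene RT1-T24-3 was the single member that rose, with a log2 fold change of 0.33 ± 0.09 (adjusted p = 0.00436) and medians of 7.39 CPM at ZT4 and 9.90 CPM at ZT16. Thus 1 of 35 tested members was called higher and 5 lower, where 18.2% of all genes tested were called higher and 17.7% lower. The share of members called lower was therefore near the background. B2m (-0.11 ± 0.07, adjusted p = 0.233) and Cd74 (-0.05 ± 0.10, adjusted p = 0.757) were not called, nor were Ciita and the class II RT1 genes.

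The time difference was also read within the title number series. In the 3 diets other than IUGR-RC the log2 fold changes were -0.80 for Psmb9, -0.47 for Tapbp, -0.39 for Tap1 and -0.37 for Psmb10 (highest adjusted p = 0.000462), and 39% of all genes were called in either direction, with 6 members among them. Within IUGR-RC 20% of all genes and 3 members were called. Psmb9 (-0.87, adjusted p = 8.58e-07), Psmb10 (-0.53, adjusted p = 0.00185) and B2m (-0.42, adjusted p = 0.0232) were lower at ZT16 there, while Tapbp (-0.21, adjusted p = 0.0845) and Tap1 (-0.21, adjusted p = 0.336) did not pass. Of the 3 IUGR-RC libraries of females at ZT4, replicate 2 stood apart by muscle transcripts and replicate 3 by clock genes. Neither this comparison nor the direct one that follows was fitted without them. Compared directly, the time difference of IUGR-RC minus that of the 3 other diets was called for 0 of 35 members and 2252 of 11047 genes. So no member was shown to differ between the series in its time difference. In CON alone, where 6.25% of all genes were called higher and 6.91% lower at ZT16, Psmb9 (-0.98, adjusted p = 1.13e-06) and Tapbp (-0.38, adjusted p = 0.00521) were the 2 members called.

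Other genes of the pathways were counted from lists written for this tissue. Of 14 tested genes of interferon-gamma signalling, 7 fell at ZT16 and none rose, where 17.7% and 18.2% of all genes did (median log2 fold change -0.16, against -0.01 over all genes). The immunity GTPase genes Igtp (-0.65 ± 0.07, adjusted p = 1.1e-09), Irgm (-0.62 ± 0.09, adjusted p = 1.8e-07) and Gbp5 (-0.55 ± 0.12, adjusted p = 0.000267) moved most clearly. Without the 4 libraries that stood apart 8 of the 14 were lower. Of 17 genes of peptide loading and class I, 2 rose and 2 fell, among them Tapbpl, which encodes the tapasin-related peptide editor (-0.57 ± 0.06, adjusted p = 1.04e-10), Psme2 of the proteasome activator (-0.27, adjusted p = 0.000874) and Psmb5, a constitutive proteasome subunit (0.16, adjusted p = 0.00264). Of 12 class II pathway genes 4 fell: the proteases Ctsb, Ctsl and Lgmn and the class II promoter factor Rfx5 (-0.25, adjusted p = 0.00122). Of 19 genes of the type I interferon response 1 rose and 5 fell. No macrophage, leukocyte, B cell or T and NK cell marker was called between the times, and macrophage markers summed to medians of 817 CPM at ZT4 and 794 CPM at ZT16. Without the 4 libraries 1 of 14 macrophage markers and 1 of 6 B cell markers were lower at ZT16. In that fit 1 of 9 dendritic cell markers was higher and 1 lower.

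All 3 immunoproteasome subunit genes and Tapbp were lower in males than in females, while B2m and Ciita were higher. Psmb10 had 14.7, 17.96 and 16.4 CPM in CON males at ZT4 and 28.6, 31.7 and 27.5 CPM in CON females. These groups did not overlap. Over all libraries it ran from 11.1 over a median of 17.4 to 34.7 CPM in males and from 16.51 over 28.6 to 49.2 CPM in females. Males were lower in 8 of 8 combinations of time and diet, with a mean log2 fold change of -0.78 ± 0.07 (edgeR, adjusted p = 6.64e-14). Psmb8 ran from 14.1 over 22.7 to 48.8 CPM in males and from 17.9 over 36.5 to 72.0 CPM in females, a log2 fold change of -0.58 ± 0.06 (adjusted p = 1.26e-10), again lower in 8 of 8 combinations. Psmb9 (-0.36, adjusted p = 7.44e-06) and Tapbp (-0.24, adjusted p = 1.27e-05) were also lower in males. Of the class I heavy chains RT1-O1 (-0.64, adjusted p = 0.00153) and RT1-CE16 (-0.41, adjusted p = 0.0107) were lower. RT1-CE16 lost its call without the 4 libraries or without IUGR-RC (highest adjusted p = 0.161).

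Higher in males were B2m (0.29 ± 0.07, adjusted p = 0.000901), Ciita (0.35 ± 0.11, adjusted p = 0.00993) and RT1-M6-2 (0.38 ± 0.14, adjusted p = 0.0224). B2m had a median of 1544 CPM in males and 1237 CPM in females, and was higher in males in 7 of 8 combinations. Ciita had medians of 5.33 and 3.70 CPM and was higher in males in 8 of 8. RT1-M6-2 lost its call without IUGR-RC (adjusted p = 0.0962). The count was 3 of 35 members higher and 6 lower in males, against 20.5% and 20.2% of all genes. In the 3 diets other than IUGR-RC, with 35.2% of all genes called in either direction and 7 members among them, Psmb10 (-0.84), Psmb8 (-0.65) and Psmb9 (-0.45) were lower. Within IUGR-RC, with 30.4% of all genes and 4 members called, Psmb10 (-0.58) and Psmb8 (-0.39) were lower, and Psmb9 was not called (-0.11, adjusted p = 0.523). The comparison within IUGR-RC was not fitted without the libraries that stood apart. In CON alone 7.85% of all genes were called higher in males and 8.36% lower. There Psmb10 (-0.82), Psmb8 (-0.79), Psmb9 (-0.43), Tapbp (-0.33) and RT1-O1 (-1.13) were lower, and no member was higher.

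In the wider lists, 3 of 17 loading and class I genes were higher and 5 lower in males, near the 20.5% and 20.2% of all genes. The clearest were Cd1d1, a lipid-presenting class I relative (-1.02 ± 0.05, adjusted p = 6.48e-23), Hfe, a class I relative of iron control (0.96, adjusted p = 7.09e-12), and Tapbpl (-0.38, adjusted p = 6.25e-07). Of 12 class II pathway genes 1 was higher and 5 were lower, with the protease genes Ctsd (-0.41, adjusted p = 7.6e-11) and Ctsl (-0.35, adjusted p = 7.9e-07) the clearest. Of 14 interferon-gamma genes 4 were lower and none higher (4 and 1 without the 4 libraries), among them the receptor chain Ifngr2 (-0.77, adjusted p = 2.18e-14) and the transcription factor Irf1 (-0.49, adjusted p = 5.61e-07). Type I interferon genes went 7 higher and 2 lower of 19, and costimulation genes 2 higher of 4, Icam1 (1.11, adjusted p = 1.11e-11) and Cd274 (0.51, adjusted p = 0.00165). Markers of class II bearing cells moved with sex as well. Of 14 macrophage markers 1 was higher and 6 were lower in males, and of 7 dendritic cell markers 4 were higher and none lower (6 of 9 higher without the 4 libraries). Dendritic cell markers summed to 26.9 to 41.7 CPM in males and 23.1 to 39.3 CPM in females. Endothelial markers went 1 higher and 4 lower of 8, B cell markers 1 and 1 of 4, hepatocyte markers 4 and 2 of 10, and no leukocyte or T and NK cell marker was called. Their part in the sex differences of the members was not tested.

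The time difference itself differed between the sexes for 7 of the 35 members, where 4.92% of all genes were called in either direction. This comparison was chosen after the data were seen. In females Tap1 fell at ZT16 by 0.63 on the log2 scale (adjusted p = 1.13e-05), while in males its log2 fold change was -0.06 (adjusted p = 0.747). The difference, males minus females, was 0.57 ± 0.15 (adjusted p = 0.0216). Tap1 had a median of 27.2 CPM in females at ZT4 and 15.6 CPM at ZT16, against 22.3 and 20.1 CPM in males. Psmb10 fell by 0.63 in females (adjusted p = 6.38e-07) and had -0.19 in males (adjusted p = 0.153), with a difference of 0.44 (adjusted p = 0.0429). Tapbp fell by 0.56 in females and 0.25 in males, with a difference of 0.30 (adjusted p = 0.0376). Psmb9 fell by 0.99 and 0.65, and its difference of 0.33 was not called (adjusted p = 0.13).

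The other 4 were class I heavy chains whose time difference ran in opposite directions. RT1-A1 had 24.8, 44.6 and 34.7 CPM in CON females at ZT4 and 21.5, 24.1 and 39.2 CPM at ZT16. In CON males it had 15.1, 26.2 and 35.2 CPM at ZT4 and 50.5, 41.2 and 40.7 CPM at ZT16, where the times did not overlap. Over the 4 diets its log2 fold change was -0.55 in females (adjusted p = 0.015) and 0.61 in males (adjusted p = 0.00793), a difference of 1.16 ± 0.25 (adjusted p = 0.0061). The differences were 1.93 for RT1-CE6 (adjusted p = 0.0241), 1.11 for RT1-CE16 (adjusted p = 0.013) and 0.73 for RT1-CE2 (adjusted p = 0.0194). In females RT1-CE6 fell by 1.22 (adjusted p = 0.00833) and RT1-CE16 by 0.73 (adjusted p = 0.0022). In males RT1-CE2 rose by 0.41 (adjusted p = 0.0227), and RT1-CE6 (0.71) and RT1-CE16 (0.38) were not called. Taking the sexes apart, 10 members, among them RT1-Bb, which most libraries lacked, were called between the times in females, where 25.8% of all genes were, and 4 in males, where 24.7% were. RT1-T24-3 rose in females (0.59, adjusted p = 0.000552) and had 0.07 in males (adjusted p = 0.744). Without the 4 libraries the difference was 0.44 for Psmb10 (adjusted p = 0.0621) and 0.84 for RT1-CE16 (adjusted p = 0.0548), and neither was called. Without the IUGR-RC libraries neither Psmb10 (0.44, adjusted p = 0.0642) nor RT1-CE16 (0.86, adjusted p = 0.0832) was called, and Psmb10 kept its call in 28 of 56 fits without 1 library.

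**Figure D2:**
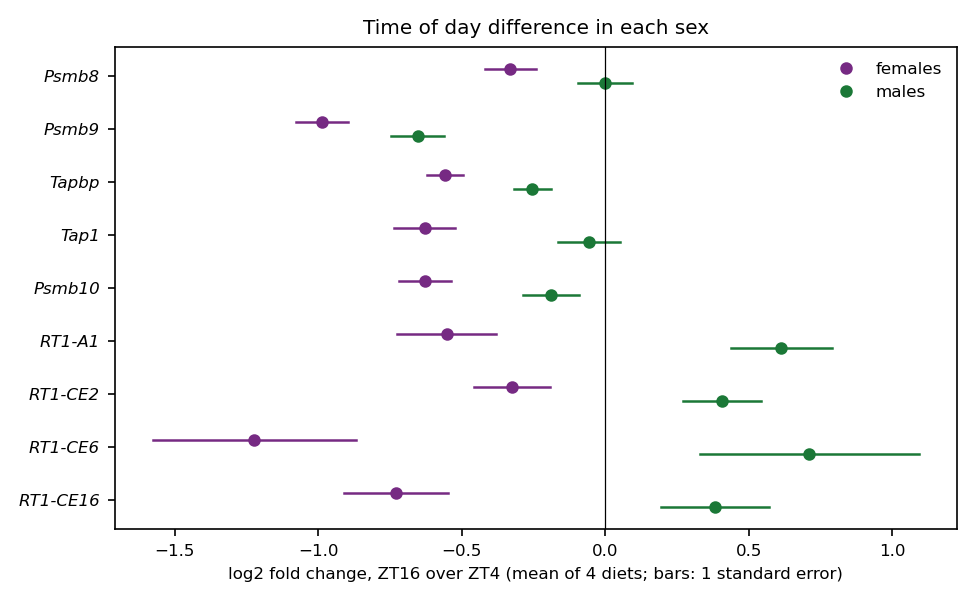
Log2 fold change of ZT16 over ZT4 (horizontal axis, mean of 4 diets, bars 1 standard error) in females and in males for each named member. Tap1, Psmb10 and Tapbp lie further below 0 in females, and RT1-A1 lies on opposite sides of 0 in the sexes.

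The IUGR-RC offspring, growth-restricted before birth and raised on chow, differed from CON in 20 of the 35 tested members, 15 higher and 5 lower. The background was wide, since 33% of all genes were called higher and 29.9% lower. This is the group whose libraries all stood apart in Rmrp, and the part of a library difference in these calls was not tested. The higher members covered class I, class II and the immunoproteasome. B2m led by significance. In males at ZT4 it had 1544, 1698 and 2032 CPM in CON and 3710, 2720, 3250 and 3856 CPM in IUGR-RC. In females at ZT16 it had 1251, 1677 and 1668 CPM in CON and 1907, 1616, 2088 and 1967 CPM in IUGR-RC. The groups were apart in the males and overlapped in the females. Over the 4 combinations of sex and time the log2 fold change was 0.78 ± 0.10 (edgeR, adjusted p = 8.48e-09).

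Of the immunoproteasome, Psmb8 (0.62 ± 0.09, adjusted p = 1.06e-07), Psmb9 (0.45 ± 0.09, adjusted p = 3.68e-05) and Psmb10 (0.39 ± 0.10, adjusted p = 0.000425) were higher. Psmb8 ran from 16.3 over a median of 30.9 to 39.8 CPM in CON and from 29.4 over 41.02 to 72.0 CPM in IUGR-RC. Tap1 had a log2 fold change of 0.03 ± 0.11 (adjusted p = 0.811). Tapbp went the other way, from 35.3 over 41.1 to 62.2 CPM in CON to 22.8 over 30.2 to 42.8 CPM in IUGR-RC (-0.45 ± 0.06, adjusted p = 5.27e-08). So within the class I machinery the proteasome subunits and B2m were higher, tapasin was lower and the transporter gene was not called.

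Class II chains were higher too. RT1-Da had 39.3, 36.3 and 42.9 CPM in CON males at ZT4 and 84.9, 87.6, 80.5 and 84.7 CPM in IUGR-RC males, and the groups did not overlap. Over the 4 combinations RT1-Da (0.78 ± 0.17, adjusted p = 0.000103), RT1-Db2 (0.72, adjusted p = 0.0221), RT1-Db1 (0.64, adjusted p = 0.0019) and RT1-Ba (0.58, adjusted p = 0.00273) were called. Their partner Cd74 was not (0.16 ± 0.15, adjusted p = 0.343), with medians of 110.5 CPM in CON and 116.7 CPM in IUGR-RC. Ciita was lower (-0.47 ± 0.16, adjusted p = 0.0116), with medians of 4.52 and 3.28 CPM. RT1-Db2 lost its call without the 4 libraries (adjusted p = 0.0804).

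Among class I heavy chains the abundant RT1-A2 (0.42, adjusted p = 0.00405) and RT1-S3 (0.30, adjusted p = 0.00516) were higher. RT1-CE3 had the largest rise among the tested members, from 0.63 over a median of 1.14 to 1.85 CPM in CON to 0.718 over 4.02 to 5.28 CPM in IUGR-RC (1.45 ± 0.23, adjusted p = 2.95e-07). Its 2 lowest IUGR-RC values, 0.718 and 0.798 CPM, belonged to the libraries of females at ZT4 that stood apart. RT1-O1 (1.13 ± 0.22, adjusted p = 2.37e-05), RT1-T24-3 (0.72, adjusted p = 7.33e-06), RT1-CE14 (0.58, adjusted p = 0.0105) and RT1-M3-1 (0.58, adjusted p = 0.00273) were also higher. RT1-M3-1 is the rat homologue of the mouse M3 molecule, which presents formylated peptides. RT1-T24-2 (-1.92 ± 0.34, adjusted p = 3.81e-06), RT1-M6-2 (-0.89, adjusted p = 0.000106) and RT1-CE2 (-0.36, adjusted p = 0.0198) were lower. RT1-T24-2 was a gene of few reads, with a median of 0.937 CPM in CON and 0.198 CPM in IUGR-RC. RT1-CE2 lost its call without the 4 libraries (adjusted p = 0.13).

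By sex and time, IUGR-RC differed from CON in 15 members in males at ZT4 (46.7% of all genes were called), 10 in the males of ZT16 (37.8%), and in 7 in females at ZT4 (38.1%) and 3 in the females of ZT16 (24.4%). The largest rises were RT1-Db2 (1.76) and RT1-CE3 (1.73) in males at ZT4, and RT1-CE3 (1.42) and RT1-Ba (0.83) in the males of ZT16. In females they were RT1-O1 (1.15) and B2m (1.07) at ZT4 and RT1-CE3 (1.92) and RT1-T24-3 (0.81) at ZT16. The largest falls were in RT1-T24-2 (-1.91) and RT1-M6-2 (-1.03) in males at ZT4 and RT1-T24-2 (-3.04) and RT1-CE6 (-1.96) in the males of ZT16. In females they were RT1-M6-2 (-1.16) and Tapbp (-0.54) at ZT4 and RT1-T24-2 (-1.84) at ZT16. The highest adjusted p of these was 0.0457. In females at ZT4, 2 of the 3 IUGR-RC libraries were among the 4 that stood apart, and 5 of the 7 calls were lost without the 4. There RT1-O1 had 1.26 (adjusted p = 0.0541), RT1-M6-2 -1.08 (adjusted p = 0.175), Tapbp -0.45 (adjusted p = 0.0728) and Psmb10, called at 0.57 (adjusted p = 0.0161), had 0.67 (adjusted p = 0.0551). RT1-Da went from 0.90 (adjusted p = 0.0395) to 0.09 (adjusted p = 0.911). In that fit the lone IUGR-RC library left was assumed to vary like the other groups. RT1-Ba in the males of ZT16 (adjusted p = 0.0457) lost its call in 4 of 7 other settings, with an adjusted p of up to 0.1, and in 20 of 56 fits without 1 library. RT1-T24-2 in the females of ZT16 had -0.56 without CON replicate 1 (adjusted p = 0.694) and -1.14 by limma voom (adjusted p = 0.156). In the authors' deposited table for males at ZT4, 15 members had an adjusted p under 0.05, the same 15 as here. The authors' deposited tables called 9 of the 10 in the males of ZT16, 6 of the 7 in females at ZT4 and the same 3 in the females of ZT16. No member passed for a difference of the IUGR-RC effect between the sexes, where 0% of all genes were called, or between the times, where 2.79% were. By edgeR 1 and 2 of the 35 members had an unadjusted p under 0.05 in these comparisons, and 1623 and 2321 of all 11047 genes. DESeq2 called none in either, and limma voom none between the sexes and 1 between the times.

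Markers of antigen-presenting and other cells moved in the same comparison. Of 14 macrophage and Kupffer cell markers 10 were higher in IUGR-RC and 1 was lower (median log2 fold change 0.66, against 0.03 over all genes), with Aif1 (1.10, adjusted p = 2.39e-10), C1qa (0.88, adjusted p = 3.3e-10) and Clec4f (0.90, adjusted p = 1.2e-08) the clearest. They summed to 689 to 1005 CPM in CON and 848 to 1640 CPM in IUGR-RC, and none was at 0. Without the 4 libraries 9 were higher and 1 lower. Of 6 leukocyte markers 5 were higher and 1 lower, 4 and 1 without the 4 libraries, and they summed to 68.8 to 99.4 CPM in CON and 59.7 to 128 CPM in IUGR-RC. Dendritic cell markers went 2 higher and 2 lower of 7, endothelial markers 3 and 3 of 8, and hepatocyte markers 6 and 1 of 10. None of 4 B cell or 4 T and NK cell markers tested was called. Without the 4 libraries 1 of 6 B cell markers was lower and none of 6 T and NK cell markers was called. Of 5 skeletal muscle genes tested none was called. The part of these cells in the rise of the class II chains was not tested.

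Counts of the wider lists in IUGR-RC stand against 33% of all genes higher and 29.9% lower. Of 17 loading and class I genes 11 were higher and 2 lower (median 0.29), with the aminopeptidase gene Lnpep (-1.89, adjusted p = 1.59e-16), the proteasome activator gene Psme1 (0.65, adjusted p = 9.8e-14) and Psmb7, whose product is replaced by that of Psmb10 in the immunoproteasome (0.78, adjusted p = 2.24e-13), the clearest. Of 12 class II pathway genes 7 were higher and 2 lower (median 0.25), among them the proteases Ctsl (0.84) and Ctss (0.86, adjusted p = 1.05e-09), which cut the invariant chain. Interferon-gamma genes went 5 higher and 4 lower of 14, near those shares, with Irf2 (-0.44), Jak2 (-0.43) and Gbp2 (0.83, adjusted p = 5.45e-05) the clearest. Type I interferon genes went 10 higher and 2 lower of 19 (median 0.50), among them Bst2 (0.80, adjusted p = 6.38e-12) and Ifi27 (0.80, adjusted p = 2.65e-08). None of 4 costimulation genes was called.

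**Figure D3:**
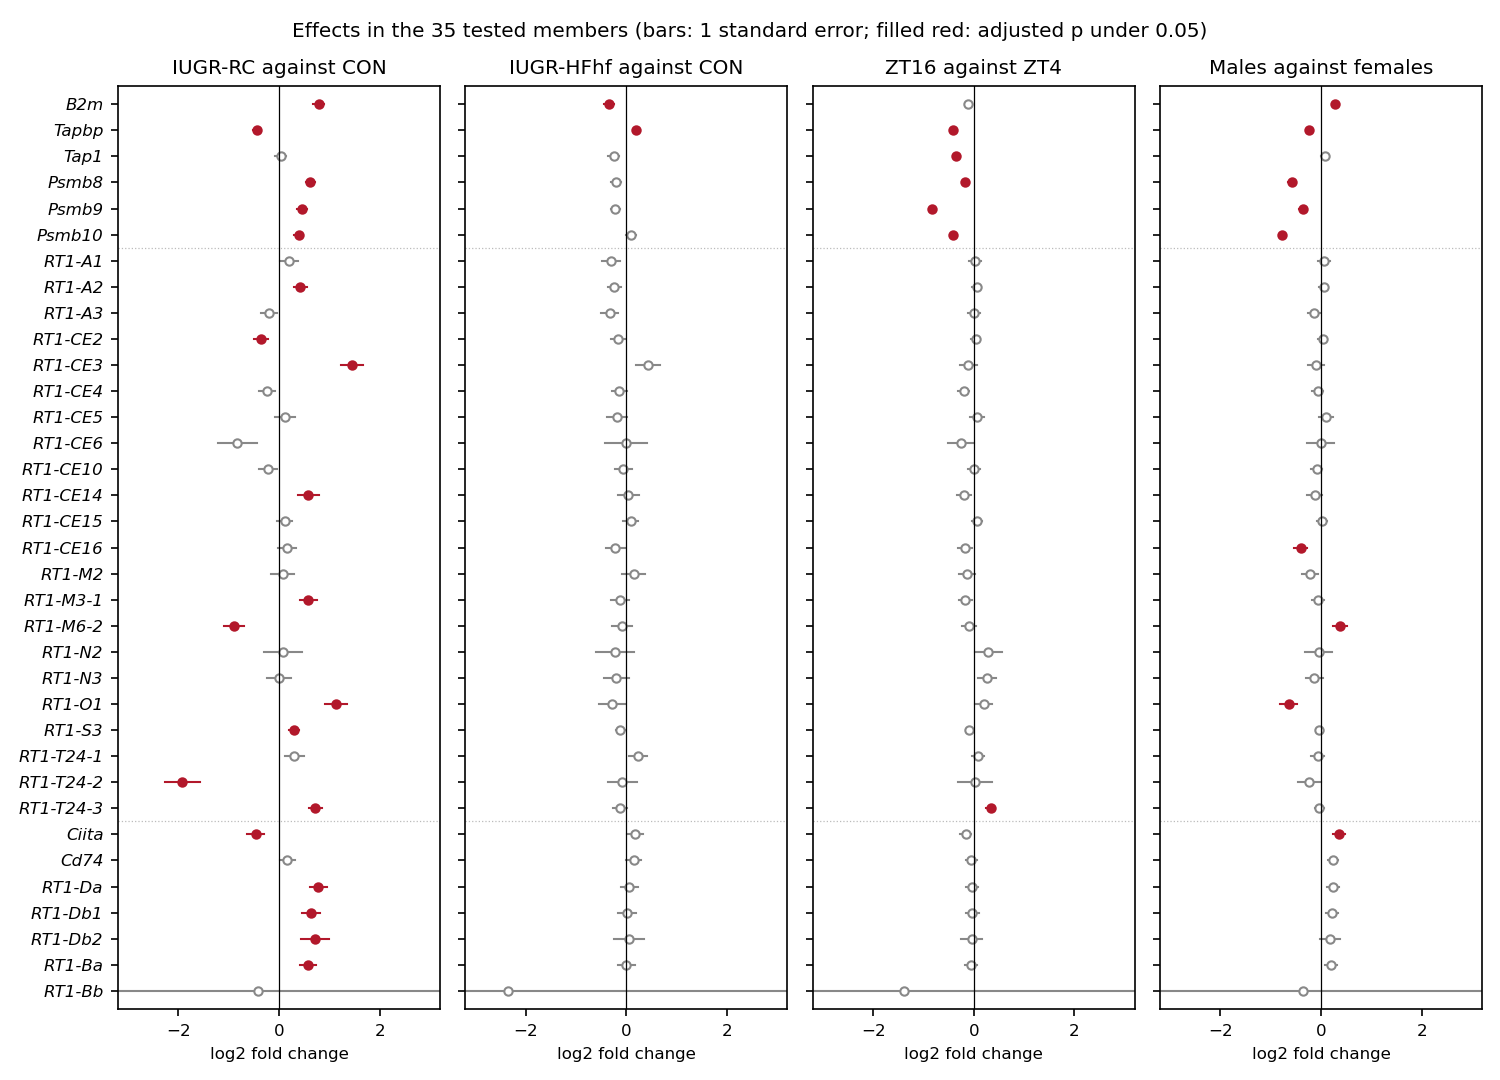
Log2 fold changes (points, horizontal axis) with 1 standard error (bars) of the 35 tested members in 4 comparisons, ordered by class; filled red points passed an adjusted p of 0.05. IUGR-RC against CON has 20 filled points; the bars of RT1-Bb, which most libraries lacked, run past the axis.

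No member was called in HFhf against CON (edgeR), where 4.31% of all genes were called higher and 3.63% lower. An unadjusted p under 0.05 was found for 5 of the 35 members and 2218 of all 11047 genes. DESeq2 called 1 member and limma voom 2, and leaving out 1 library gave 0 to 2. Cd74 had a log2 fold change of 0.30 ± 0.15 (adjusted p = 0.259) and Tap1 of -0.25 ± 0.11 (adjusted p = 0.176). In IUGR-HFhf against CON 1 of 35 members was higher and 1 lower, against 5.8% and 4.68% of all genes. B2m ran from 1158 over a median of 1531 to 2032 CPM in CON and from 910 over 1160 to 1543 CPM in IUGR-HFhf, and the groups overlapped. Its log2 fold change was -0.35 ± 0.10 (adjusted p = 0.0188). Tapbp had medians of 41.1 and 50.7 CPM and a log2 fold change of 0.20 ± 0.06 (adjusted p = 0.04). With every gene that had a read in the test, Tapbp was no longer called (adjusted p = 0.0692). B2m and Tapbp thus had signs opposite to those in IUGR-RC against CON, a comparison that used the same CON libraries.

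No member was called between IUGR-HFhf and HFhf (edgeR, and 0 by DESeq2 and limma voom), with 0.0362% of all genes higher and 0.0181% lower. By edgeR 1 of the 35 members and 834 of all 11047 genes had an unadjusted p under 0.05. By sex and time, HFhf against CON called no member in males (0.688% of all genes at ZT4, 0.932% at ZT16) or females (1.16% at ZT4, 1.26% at ZT16). Unadjusted p-values under 0.05 numbered 0 to 3 among the members and 1120 to 1285 among all 11047 genes. The authors' deposited table for HFhf males at ZT4 called Psmb9 (-0.74, adjusted p = 0.0265). IUGR-HFhf against CON called none in males at ZT4 (0.462%), males at ZT16 (3.31%) or females at ZT4 (0.679%). In these 3, 1 to 7 members and 1034 to 1833 of all 11047 genes had an unadjusted p under 0.05. The authors' deposited table for IUGR-HFhf males at ZT16 called RT1-A3 (-1.07, adjusted p = 0.0464) and RT1-Bb (adjusted p = 0.0111), the gene most libraries lacked. In females at ZT16 (2.22%) Psmb8 was lower (-0.68 ± 0.18, adjusted p = 0.0273). Psmb8 kept this call in 8 of 8 other settings and in 50 of 56 fits without 1 library. It was lost without any of CON replicates 1, 2 and 3 or IUGR-HFhf replicates 1, 2 and 3 of these females. IUGR-HFhf against HFhf called none in the same order of groups (0%, 0.0181%, 0.0181% and 0.00905% of all genes). There 0 to 4 members and 627 to 819 of all 11047 genes had an unadjusted p under 0.05. No member passed for a difference of the HFhf effect between sexes (0.0724% of all genes) or times (0.67%), or of the IUGR-HFhf effect between sexes (0.281%) or times (0.643%). By edgeR 1, 3, 5 and 8 of the 35 members had an unadjusted p under 0.05 in these 4. Of all 11047 genes tested, 683, 943, 736 and 1427 had one. In the IUGR-HFhf comparison of the sexes DESeq2 called 1 member, and in that of the times limma voom called 2.

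In the same diets the Kupffer cell receptor gene Marco was the single macrophage marker of 14 called, lower in HFhf (-3.03 ± 0.35, adjusted p = 1.32e-07) and in IUGR-HFhf (-3.10 ± 0.34, adjusted p = 4.33e-08). Without the 4 libraries 2 of the 14 were lower in HFhf. Type I interferon genes went 1 higher and 6 lower of 19 in IUGR-HFhf against CON (median -0.26), with Bst2 higher (0.32, adjusted p = 0.00522) and Ifit3 (-0.52, adjusted p = 0.00725) and Irf9 (-0.29, adjusted p = 0.0106) lower. In HFhf 1 of these 19 was called, Ifit2 (0.32, adjusted p = 0.00924). Interferon-gamma genes had 1 call in each diet, Ifngr2 higher in HFhf (0.30) and Jak2 lower in IUGR-HFhf (-0.21). Class II pathway genes went 2 higher (Ctsb and Ctsd) and 2 lower (Ctss and Ctsl) of 12 in IUGR-HFhf and had no call in HFhf. Loading genes had 2 lower in HFhf, Psme2 (-0.31) and Hfe (-0.45), and none in IUGR-HFhf.

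Within groups most of the tested class II genes rose and fell together from library to library. With the group mean removed from log2(CPM + 0.5), Cd74 was correlated over the 56 libraries with RT1-Da (r = 0.88, rho = 0.83), RT1-Db1 (r = 0.85, rho = 0.84) and RT1-Ba (r = 0.83, rho = 0.73), each with a permutation p of 1e-05, the smallest that 100000 permutations give (adjusted p = 0.000217 over 65 pairs of a member with Cd74 or B2m, 7 of them called). Ciita followed with r = 0.64 and rho = 0.55 (permutation p = 0.00082, adjusted p = 0.0118), RT1-Db2 with r = 0.58 and rho = 0.48 (permutation p = 0.00091, adjusted p = 0.0118) and RT1-M3-1 with r = 0.39 and rho = 0.40 (permutation p = 0.00219, adjusted p = 0.0203). The class II gene RT1-Bb, which most libraries lacked, did not follow Cd74 (r = -0.12, rho = -0.13, permutation p = 0.509, adjusted p = 0.778). Its r was 0.50 within IUGR-RC and -0.40 within the other libraries. Without the 2 libraries farthest from the median of Cd74, r was 0.84 for RT1-Da, 0.82 for RT1-Db1, 0.81 for RT1-Ba, 0.59 for Ciita, 0.45 for RT1-Db2 and 0.32 for RT1-M3-1. Within the 15 IUGR-RC libraries r was 0.85, 0.95, 0.93, 0.84, 0.26 and 0.69 in the same order, and within the other 41 it was 0.89, 0.80, 0.78, 0.57, 0.67 and 0.33. The count of 7 called pairs was 6 without the 4 libraries that stood apart and 5 without IUGR-RC. These points share library depth and cell makeup, and litters are not given. Genes outside the members were not correlated, so how often other genes follow Cd74 or B2m was not tested.

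Of 32 members set against B2m, Psmb8 alone was called by r (r = 0.47, rho = 0.46, permutation p = 0.00139, adjusted p = 0.0151), with r = 0.40 without the 2 farthest libraries, 0.70 within IUGR-RC and 0.32 within the others. RT1-T24-3 also had r = 0.47 with B2m (permutation p = 0.0256, adjusted p = 0.185), which did not pass. Its rho of 0.44 passed by rank (permutation p = 0.00496, adjusted p = 0.0461). Cd74 and B2m had r = -0.02 and rho = 0.01 (permutation p = 0.895, adjusted p = 0.962). All 528 pairs of 33 members were then read, a step added after the data were seen. The class II gene RT1-Bb was left out of these pairs because it was at 0 in more than 25% of libraries. Of 15 pairs within the class II set 12 were called and positive (median r = 0.64). Of 15 pairs within the class I machinery 5 were (median r = 0.31), among them Psmb8 with Psmb10 (r = 0.64, rho = 0.60, permutation p = 5e-05, adjusted p = 0.00115). Of 36 pairs between these sets 1 was called (median r = 0.12). Class I heavy chains gave 42 positive and 10 negative calls in 210 pairs (median r = 0.14). Pairs of genes outside the members were not read, so these counts have no share over all genes beside them.

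**Figure D4:**
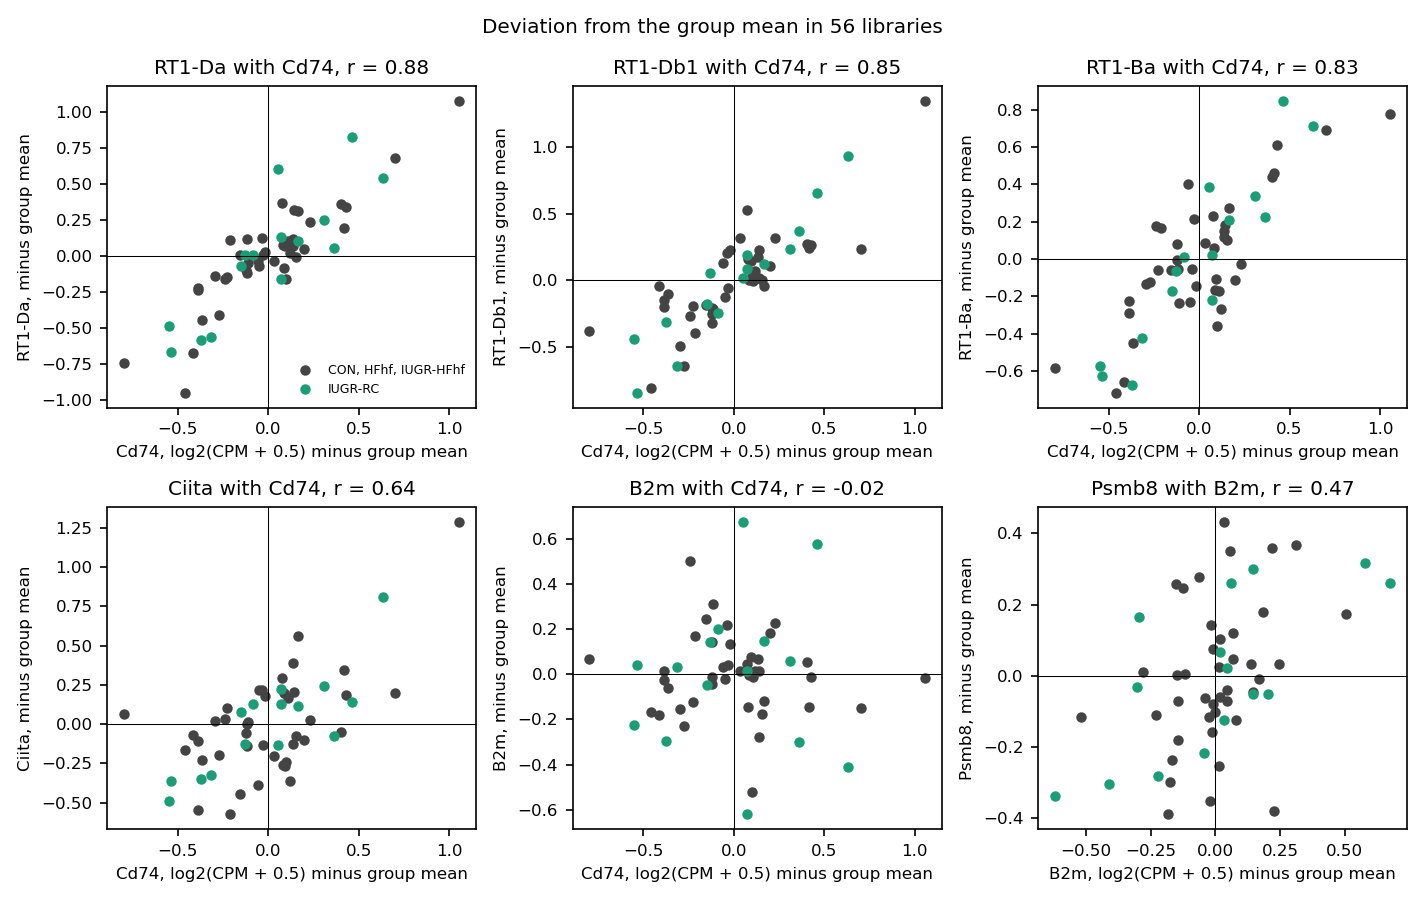
Deviations from the group mean of log2(CPM + 0.5) in 56 libraries, with 1 member on each axis of a panel. The class II chains shown follow Cd74, with r = 0.88 for RT1-Da, while B2m and Cd74 show r = -0.02.

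Some RT1 genes were read as present or absent by library and not by group. RT1-Bb, the class II B beta chain, had no read in 42 libraries, 1 to 3 reads in 3 and 36 to 152 reads in 11, the last at 4.75 to 23.1 CPM. These 11 came from 9 of the 16 groups. RT1-Ba, which encodes its alpha partner, was read in all 56. The class I gene RT1-N2 was under 1 CPM in 5 libraries and at 3.36 CPM or more in the others, and all 5 were among the 11 with RT1-Bb reads. In those 5 its neighbour RT1-N3, whose start lies 20159 bases away on GRCr8, had 3.15 to 6.68 CPM, against 9.39 to 32.4 CPM elsewhere. The 5 were replicate 2 of HFhf males at ZT16, replicate 4 of IUGR-RC males at ZT16, replicate 1 of HFhf females at ZT4 and replicates 2 and 3 of IUGR-RC females at ZT4. RT1-N2 and RT1-N3 were correlated with r = 0.94 and rho = 0.91 (permutation p = 1e-05, adjusted p = 0.00044 over 528 pairs), and r was 0.90 over the 51 libraries with at least 1 CPM of RT1-N2. RT1-CE16 ran against RT1-N2 (r = -0.71, rho = -0.62, permutation p = 7e-05, adjusted p = 0.00148). Its r without the 5 libraries with RT1-N2 under 1 CPM was not computed. The highest RT1-CE16 level of all 56 libraries, 66.8 CPM, was in 1 of these 5, replicate 2 of IUGR-RC females at ZT4. RT1-CE10 and RT1-CE5 (r = 0.86, rho = 0.88) and RT1-CE5 and RT1-A2 (r = 0.83, rho = 0.83) had the highest values among the other class I pairs (permutation p = 1e-05, adjusted p = 0.00044 each). RT1-Bb had a biological coefficient of variation of 391% within groups, RT1-N2 of 74.6% and RT1-CE6 of 59.8%, against 11.3% for Tapbp, 18.8% for B2m and 15.7% for Psmb8. RT1 haplotypes were not analysed here.

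**Figure D5:**
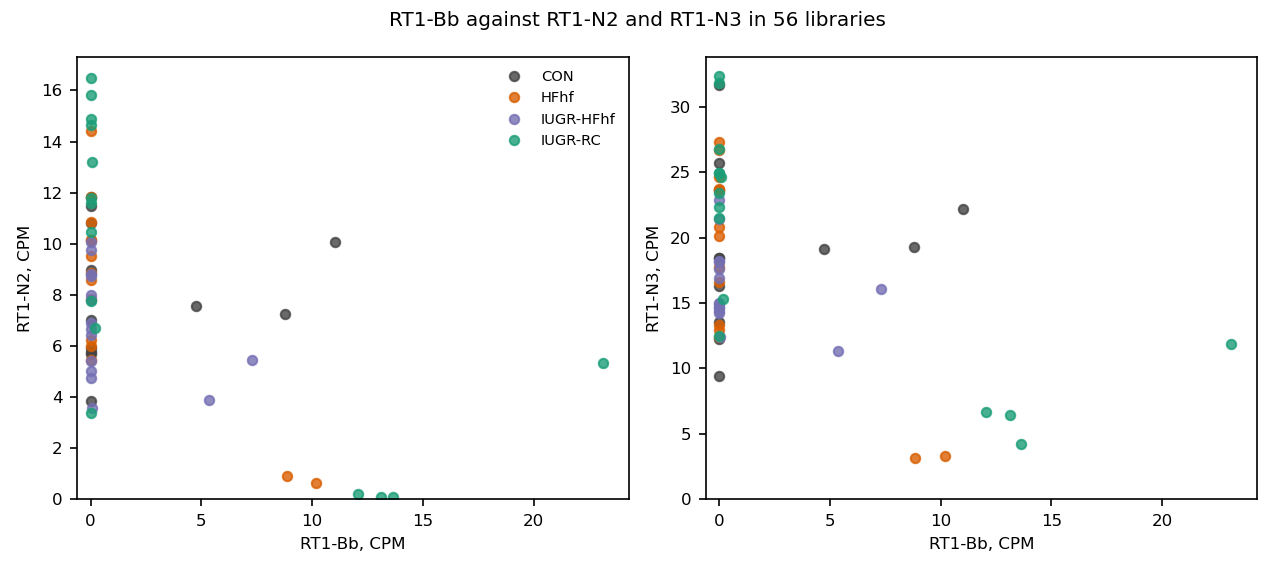
CPM of RT1-N2 and RT1-N3 (vertical axes) against CPM of RT1-Bb (horizontal axis) in 56 libraries, each point 1 library. The 5 libraries with RT1-N2 under 1 CPM all have RT1-Bb reads, and libraries without RT1-Bb sit at 3.36 CPM of RT1-N2 or more.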

How the data were processed

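Stranded, ribosomal RNA-depleted libraries of 56 rat livers were read on an Illumina HiSeq instrument, per the labels' protocols; the molecule label reads polyA RNA and the source label mouse liver. Per the submitters' processing notes the tools were FastQC, STAR, featureCounts, Subread and DESeq2 on build rn6, with versions and settings not given in the sources used here. The authors deposited raw counts per gene, unnormalized. Their 12 deposited tables of a diet against CON hold, per the file headers, log2 fold changes and adjusted p-values, and were used only to compare calls. The strand setting of the counting is not given, so antisense reads may be included.

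Counts were fitted in edgeR 4.0.16 (R 4.3.3) with TMM scaling, filterByExpr, 1 mean per group over 16 groups, robust quasi-likelihood F tests and 40 residual degrees of freedom; p-values were two-sided and adjusted over 11047 genes by the Benjamini-Hochberg method (threshold 0.05). Standard errors are the log2 fold change over the root of F, and CPM uses TMM-scaled sizes. Depth was 5.55 to 19.1 M reads. Replicate pairs of a group differed by more than counting error (chi-square per degree of freedom 8.87 to 109 over 72 pairs), so none was merged. Correlations used 100000 permutations within groups. Scripts were tested on simulated data. Alternatives were DESeq2 1.42.0 size factors and Wald test, limma 3.58.1 voom, other filters and fits, and leaving out libraries. Fits within sexes and diets, the time by sex comparison and all pairs of members were added after the data were seen.

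Members and lists were chosen with earlier results of these data known. Every called member of a mean comparison was named, up to 10 per direction by log2 fold change, then 2 per direction in a single combination of sex and time, 3 in a difference and 3 per list by p; further members and those of the time by sex comparison were named after their values were seen.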

Additional observations from a re-analysis of the deposited data

Results flagged for a closer look

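In groups of 4 libraries, a library was taken as far from its group when its gap to the nearest other library exceeded Dixon's 95% critical share of the group's range. This happened in 27 of 280 sets. For independent, normally distributed values chance gives about 1 in 20, or 14. Members vary together within a library and RT1-Bb had no read in most libraries, so these counts do not measure an excess. Replicate 3 of IUGR-HFhf females at ZT4 was highest 7 times, with 11 CPM of Ciita, 244 CPM of Cd74, 45.1 CPM of RT1-Db1, 8.88 CPM of RT1-T24-3, 19.1 CPM of RT1-CE2, 39.9 CPM of RT1-CE5 and 13.5 CPM of RT1-CE4. The other libraries of that group had 2.66 to 3.7 CPM of Ciita and 85.2 to 101 CPM of Cd74. In that library B cell markers summed to 22.5 CPM, against 9.72 to 13.8 CPM in the others, and leukocyte markers to 132 CPM, against 59.1 to 82.1 CPM. Their part in these values was not tested.

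RT1-Bb stood out where a single library of a group held most of its reads: 8.85 CPM in replicate 2 of HFhf males at ZT16, 7.31 CPM in replicate 4 of IUGR-HFhf females at ZT4, 5.36 CPM in replicate 2 of IUGR-HFhf females at ZT16 and 0.186 CPM in replicate 1 of IUGR-RC males at ZT4. The last value rested on 3 reads, no more than a count of 0 allows. In IUGR-RC males at ZT16, replicate 2 was high for Ciita (6.41 CPM) and RT1-M6-2 (5.31 CPM), replicate 1 was low for RT1-CE10 (24.1 CPM) and replicate 3 was low for Psmb9 (19.6 CPM). In IUGR-RC males at ZT4, replicate 2 was high for Cd74 (151 CPM) and low for RT1-O1 (0.959 CPM). In HFhf males at ZT16, replicate 1 was high for RT1-CE2 (16.1 CPM) and RT1-CE5 (30.7 CPM), replicate 2 for Tap1 (29.2 CPM) and replicate 3, one of the libraries with muscle transcripts, for RT1-O1 (2.03 CPM). In HFhf females at ZT16, replicate 1 was high for RT1-T24-1 (4.03 CPM), replicate 3 for Psmb8 (36.5 CPM) and replicate 4 for RT1-A3 (7.77 CPM). The last were RT1-S3 in replicate 1 of IUGR-HFhf females at ZT4 (301 CPM, high), RT1-T24-2 in replicate 1 of IUGR-HFhf males at ZT16 (1.58 CPM, high) and RT1-CE4 in replicate 2 of IUGR-RC females at ZT16 (5.67 CPM, low).

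The log2 difference between ZT16 and ZT4 differed between males and females, by a test of that difference in edgeR, for RT1-CE6 (1.93), RT1-A1 (1.16), RT1-CE16 (1.11), RT1-CE2 (0.73), Tap1 (0.57), Psmb10 (0.44) and Tapbp (0.30).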

How the results depend on the processing

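Single values were followed for members called in the mean comparisons, the single combinations of sex and time, CON alone and the time by sex difference. None of these reversed its direction. Values that were not called, and values within a single sex or within IUGR-RC, were not followed in this way. Of 611 values under other settings 577 kept their side of the threshold and 34 lost it. With 1 library left out, 4650 of 4872 kept it and 222 lost it. The count of members called in HFhf against CON moved from 0 to 1 with the DESeq2 Wald test, 2 with limma voom, 1 with the compared groups fitted alone and 1 without the IUGR-RC libraries. It was 0 to 2 with 1 library left out, and was above 0 without CON male ZT4 replicate 1, HFhf male ZT4 replicate 2, HFhf male ZT16 replicate 2, IUGR-RC male ZT16 replicate 1, HFhf female ZT4 replicate 1, IUGR-RC female ZT4 replicate 3 or HFhf female ZT16 replicate 4. In IUGR-HFhf against CON the count of 2 became 1 when every gene with a read was tested, and was 1 to 2 with 1 library left out. Tapbp kept its call there in 30 of 56 such fits. The difference of the IUGR-HFhf effect between the sexes went from 0 to 1 with DESeq2, and that between the times from 0 to 2 with limma voom. The difference of the IUGR-RC effect between the times went from 0 to 1 with limma voom, and was 0 to 1 with 1 library left out (1 without IUGR-RC male ZT16 replicate 1 or IUGR-RC female ZT4 replicate 1). Correlated members went from 7 to 4 when a mean of at least 5 CPM was required, which leaves fewer members, to 6 without the 4 libraries that stood apart and to 5 without the IUGR-RC libraries, and were 5 to 9 with 1 library left out. The cause of the other changes was not tested. For the time by sex difference RT1-CE6 lost its call with limma voom (adjusted p = 0.0667), and Psmb10 (0.0587) and Tapbp (0.054) when every gene with a read was tested. No paired analysis was possible because the replicate numbers are accession order and the labels pair no samples. Depth limits the 23 untested members and those near 1 CPM.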
